A study of Homo sapiens and Mus musculus with 16 samples.

Results

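The 10 genes CCND1, CCND2, CCND3, CCNE1, CCNE2, CDK4, CDK6, CDKN1B, CDKN2A and CDKN2C encode the G1 cyclins, their kinases and 3 inhibitors of those kinases. They were taken by gene symbol, whatever their values, and each matched 1 of 58713 genes listed for the human cells and, in mouse spelling, 1 of 53796 genes listed for the mouse cells. The cells sequenced were MDA-MB-231, derived from a human triple-negative breast carcinoma, and CT26, derived from a carcinoma of the mouse colon. Either line had 4 libraries of PD-L1 knockout cells (KO) and 4 of PD-L1 wild type cells (WT), 16 libraries in all. PD-L1, the product of CD274, is a surface protein that engages PD-1 on T cells, and the knockout was made with CRISPR delivered by lentivirus. The comparison asks how the G1 machinery differed in cultured tumour cells once PD-L1 was disrupted. The sources used here give no control virus or guide for WT cells, do not say whether KO cells were 1 clone or a pool, and do not say whether libraries came from separate cultures. The p-values therefore measure the spread between libraries, which may be technical, and effects of PD-L1 loss and of how the KO cells were derived cannot be told apart.

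In the G1 phase, D-type cyclins bind and activate CDK4 and CDK6, which begin to phosphorylate the retinoblastoma protein and so release E2F transcription factors. E2F factors switch on the E-type cyclins, which activate CDK2 and carry the cell into S phase. The INK4 inhibitors, among them the products of CDKN2A and CDKN2C, bind CDK4 and CDK6, whereas p27, the product of CDKN1B, binds cyclin and kinase together. Loss of INK4 genes and gain of D-type cyclins are frequent in carcinomas.

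Levels are in FPKM, fragment numbers per transcript length and per library, and so can be compared between genes of a line. How the authors scaled the libraries against each other is not stated. Their sum over all genes was 847947 to 927574 in KO and 750840 to 787989 in WT libraries of MDA-MB-231, and 763174 to 783043 in KO and 782464 to 830171 in WT libraries of CT26. The approximate depth relative to WT replicate 1 ran from 0.508 to 0.779 in KO and from 0.943 to 1.21 in WT libraries of MDA-MB-231, and from 0.927 to 2.497 in KO and from 0.801 to 1.14 in WT libraries of CT26. The targeted transcript CD274 averaged 10.6 ± 1.91 FPKM in KO and 12.2 ± 0.670 FPKM in WT libraries of MDA-MB-231 (SD, n = 4 each; limma adjusted p = 0.166, log2 fold change -0.20). It was called lower in KO with upper-quartile scaling (-0.40, limma adjusted p = 0.0157), quantile normalization (-0.32, limma adjusted p = 0.0425), median centring (-0.32, limma adjusted p = 0.0453) and centring on the genes within 10 Mb (-0.48, limma adjusted p = 0.00724). Cd274 averaged 0.526 ± 0.0552 FPKM in KO and 1.41 ± 0.127 FPKM in WT libraries of CT26 (SD, n = 4 each; limma adjusted p = 1.42e-04). The MDA-MB-231 libraries held VIM, CD44, KRT18 and KRT8, while ESR1 and PGR stayed at or under 0.130 FPKM. The markers held differed between the groups without overlap. VIM was higher in KO, at 2462 to 2634 FPKM in KO and 1095 to 1123 FPKM in WT libraries. The others were lower in KO, CD44 at 311 to 337 FPKM in KO and 1028 to 1131 FPKM in WT libraries. KRT18 had 296 to 328 FPKM in KO and 368 to 389 FPKM in WT, and KRT8 had 212 to 223 FPKM in KO and 397 to 403 FPKM in WT libraries. The CT26 libraries held Vim and Krt18, but Krt8 stayed at or under 0.295 FPKM, Cdh1 and Vil1 under 0.1 FPKM, and Epcam was listed at 0 in all 8, so most of the epithelial markers checked were at or near 0. Vim had 4493 to 4574 FPKM in KO and 3682 to 4035 FPKM in WT libraries of CT26, and the groups overlapped for Krt18. None of the leukocyte markers found (5 in MDA-MB-231 and 3 in CT26) reached 1 FPKM in any library. In MDA-MB-231 they summed to 0 in every KO library and to 0.577 to 1.05 FPKM in WT libraries. In CT26 the sum was 0 to 0.0130 FPKM in KO and 0 in WT libraries. The summed fibroblast and endothelial markers reached 3.35 to 4.84 FPKM in KO and 10.7 to 13.1 FPKM in WT libraries of MDA-MB-231, and 13.2 to 16.8 FPKM in KO and 21.3 to 24.0 FPKM in WT libraries of CT26, mostly from COL1A1, and their part in the results was not tested.

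KO was compared with WT on log2(FPKM + 1) with limma over all genes that reached 1 FPKM in 4 or more of the 8 libraries, and a gene was called at a Benjamini-Hochberg adjusted p under 0.05. In MDA-MB-231, 8 of the 10 genes passed that filter and 4 were called, with CDK4, CDK6 and CCNE2 higher and CCND3 lower in KO. The background there was high, since 68.2% of all genes tested were called (42.6% higher and 25.7% lower), and 62.7% had groups that did not overlap, as did the same 4 G1 genes. In CT26, 9 of the 10 passed and 7 were called, with Ccnd1, Ccne2 and Cdkn1b higher and Ccnd3, Ccne1, Cdk4 and Cdk6 lower in KO, beside 55.8% of all genes (22.3% higher and 33.5% lower). The groups did not overlap for 6 of these 7, beside 51.5% of all genes. The share called among the G1 genes was thus below the background in MDA-MB-231 and above it in CT26, and with so few genes neither departure was tested. The median log2 fold change was 0.04 over the 8 human members and -0.24 over the 9 mouse members, beside 0.18 and -0.06 over all genes tested. Scaling each library to its upper quartile moved the median of all genes to -0.01 in MDA-MB-231 and to 0.03 in CT26. It turned the split of called genes to 4736 higher and 4851 lower, against 6149 and 3711 as deposited, in MDA-MB-231, and to 3316 higher and 2840 lower, against 2534 and 3794, in CT26.

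**Figure D1:**
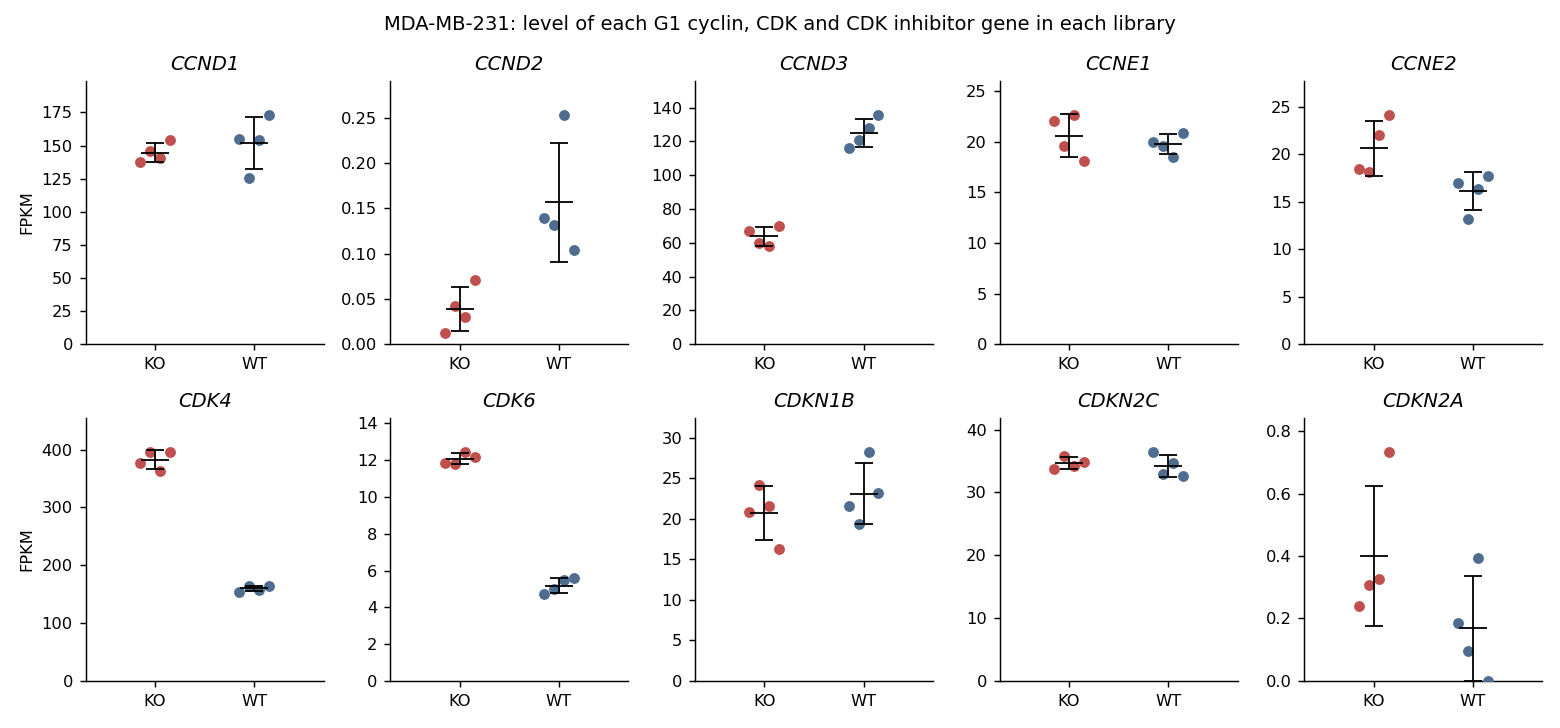
Level in FPKM (y axis, from 0) of each of the 10 genes in the 4 KO (red) and 4 WT (blue) libraries of MDA-MB-231, with the mean and SD as black bars. CDK4 and CDK6 stand higher and CCND3 lower in all 4 KO libraries than in any WT library, while CCND2 and CDKN2A stay under 1 FPKM throughout.

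**Figure D2:**
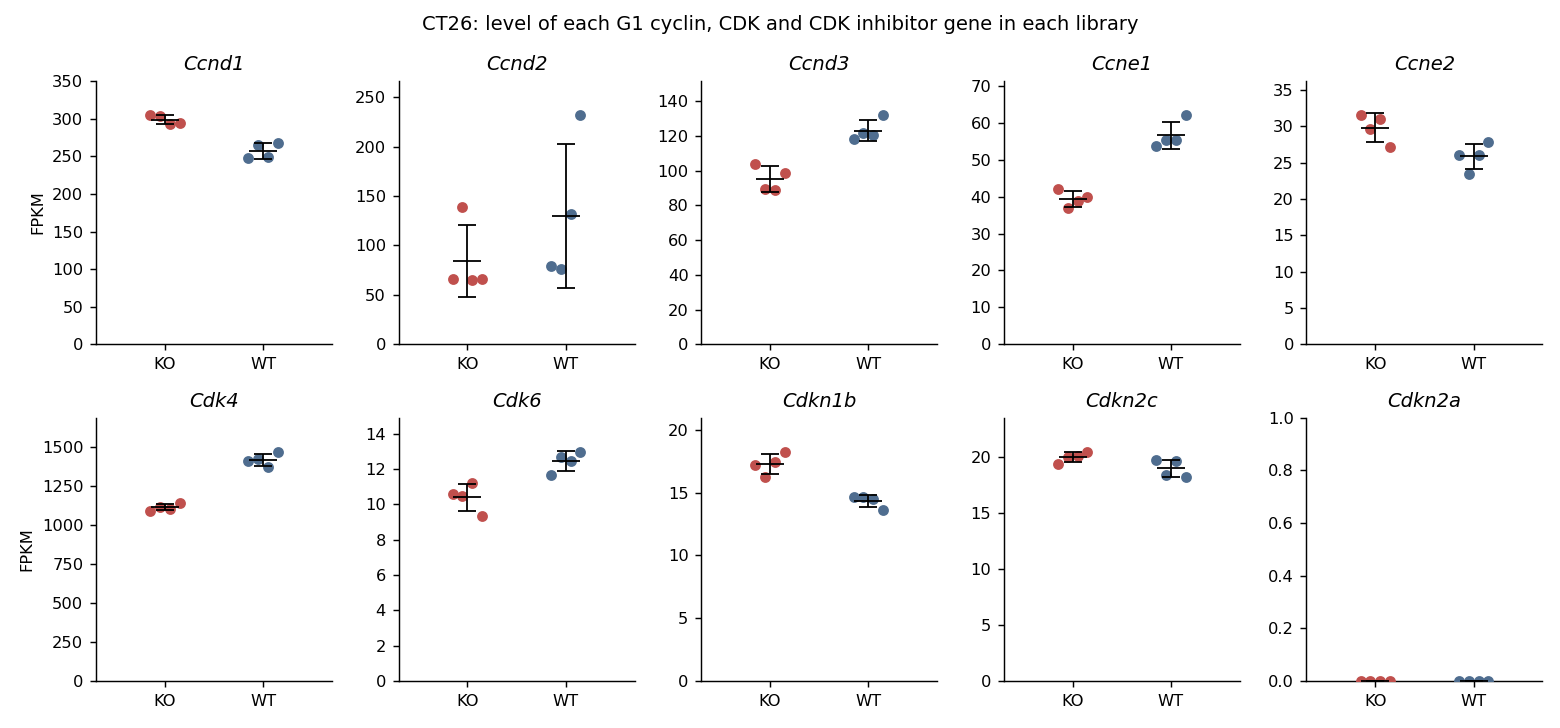
Level in FPKM (y axis, from 0) of the same genes in the 4 KO (red) and 4 WT (blue) libraries of CT26, with the mean and SD as black bars. Ccne1, Cdk4, Cdk6 and Ccnd3 stand lower and Ccnd1 and Cdkn1b higher in all 4 KO libraries than in any WT library, Ccnd2 scatters widely, and Cdkn2a is listed at 0 in all 8.

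Among the D-type cyclins of MDA-MB-231, CCND3 fell, CCND1 did not pass the test, and CCND2 was barely present. CCND3 (ENSG00000112576, hg38 chr6:41934933-42050357, minus strand in GENCODE 29) encodes cyclin D3, prominent in lymphoid and differentiating cells. It had 66.9, 59.8, 58.3 and 70.2 FPKM in KO libraries, against 116, 121, 128 and 135 FPKM in WT libraries. The highest KO library lay far under the lowest WT library. CCND3 averaged 63.8 ± 5.72 FPKM in KO and 125 ± 8.53 FPKM in WT libraries (SD, n = 4 each), a log2 fold change of -0.96 (SE 0.07, limma adjusted p = 4.95e-06). The median log2 fold change of the 189 genes tested within 10 Mb on either side was -0.49, so that CCND3 fell by 0.47 relative to that median (limma adjusted p = 3.65e-04). With upper-quartile scaling the value was -1.18. In bulk RNA, fewer expressing cells and less RNA per cell cannot be told apart.

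CCND1 (ENSG00000110092, hg38 chr11:69641087-69654474, plus strand) encodes cyclin D1, the D-type cyclin most often amplified in breast cancer. By mean level it was the most abundant of the D-type and E-type cyclins of the line in both groups. It had 138, 146, 141 and 154 FPKM in KO libraries, against 155, 126, 154 and 173 FPKM in WT libraries. The groups overlapped, with both the lowest and the highest library in WT. The log2 fold change was -0.06 (SE 0.09, limma adjusted p = 0.567), but upper-quartile scaling gave -0.28 (limma adjusted p = 0.0242) and quantile normalization -0.31 (limma adjusted p = 0.0204), both past the threshold.

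CCND2 (ENSG00000118971, hg38 chr12:4273772-4305350, plus strand) encodes cyclin D2 and lay under the filter in MDA-MB-231. It had 0.0126, 0.0419, 0.0303 and 0.0708 FPKM in KO libraries, against 0.140, 0.132, 0.253 and 0.104 FPKM in WT libraries. All 4 KO values were below all 4 WT values, and the exact permutation p of 0.0286 (two-sided, unadjusted) is the smallest that 70 assignments of 8 libraries allow. Such levels rest on very few fragments, and the KO libraries were the shallower ones. Its neighbour TIGAR, a fructose bisphosphatase gene, was expressed at 21.0 FPKM in KO and 11.0 FPKM in WT libraries.

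The D-type cyclin transcripts of MDA-MB-231 summed to 208 ± 11.2 FPKM in KO and 277 ± 25.7 FPKM in WT libraries (SD, n = 4 each), with no overlap. CCND1 made up 67.3% to 70.9% of that sum in KO libraries and 51.0% to 57.1% in WT libraries. CCND3 made up 29.1% to 32.7% in KO libraries and 42.8% to 48.9% in WT libraries. The mix thus lay further toward CCND1 in KO cells, although the level of CCND1 itself was no higher.

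In CT26, Ccnd1 rose and Ccnd3 fell in KO, and Ccnd2 varied too much within both groups for a call. Ccnd1 (ENSMUSG00000070348, mm10 chr7:144915100-144939925, a locus span that also holds Oraov1) had 305, 303, 294 and 294 FPKM in KO libraries, against 247, 265, 250 and 268 FPKM in WT libraries. All KO values lay above all WT values, and both groups were tight, for a log2 fold change of 0.22 (SE 0.03, limma adjusted p = 7.99e-04).

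Ccnd3 (ENSMUSG00000034165, mm10 chr17:47505051-47611492, shared with Bysl) had 104, 89.6, 88.6 and 98.7 FPKM in KO libraries, against 118, 122, 121 and 132 FPKM in WT libraries. The groups did not overlap. The log2 fold change was -0.37 (SE 0.06, limma adjusted p = 9.00e-04), while Bysl, a ribosome assembly gene, had a log2 fold change of -0.16. Cyclin D3 transcripts were therefore lower in KO cells of both lines, where the median gene near the locus stood at -0.49 in MDA-MB-231 and -0.08 in CT26.

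Ccnd2 (ENSMUSG00000000184, mm10 chr6:127122966-127212411) had 65.6, 139, 65.4 and 66.2 FPKM in KO libraries, against 79.3, 75.9, 132 and 232 FPKM in WT libraries. KO replicate 2 and WT replicates 3 and 4 were high, and the groups overlapped. The log2 fold change was -0.55 (SE 0.39, limma adjusted p = 0.267), and leaving out single libraries moved it between -0.82 (without KO replicate 2) and -0.22 (without WT replicate 4), with no call. The SD within groups was 0.65 on the log2 scale, which ranked 116 of 7198 genes with a mean of at least 10 FPKM, where the median was 0.08. Correlations with Ccnd2 over the 8 CT26 libraries were described after these values were seen. Of the 11342 genes tested, 15 had a positive Pearson correlation above 0.9, and how many chance would give was not tested. The highest correlation was that of Hk1, a hexokinase gene, at 0.957. However, Hk1 spanned only 0.13 on the log2 scale, and 0 of the 15 spanned more than 1. The strongest inverse correlation was that of Gm19287, at -0.974, which spanned 1.46 on the log2(FPKM + 1) scale at levels of 0 to 1.75 FPKM.

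The D-type cyclin sum in CT26 was 478 ± 37.4 FPKM in KO and 510 ± 84.6 FPKM in WT libraries (SD, n = 4 each), with overlap. Without Ccnd2 it was 394 ± 10.9 FPKM in KO and 381 ± 15.8 FPKM in WT libraries, again with overlap. All 3 D-type cyclin genes passed the filter in CT26, and Ccnd2 held 13.8% to 26.2% of the sum in KO and 16.4% to 36.7% in WT libraries.

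**Figure D3:**
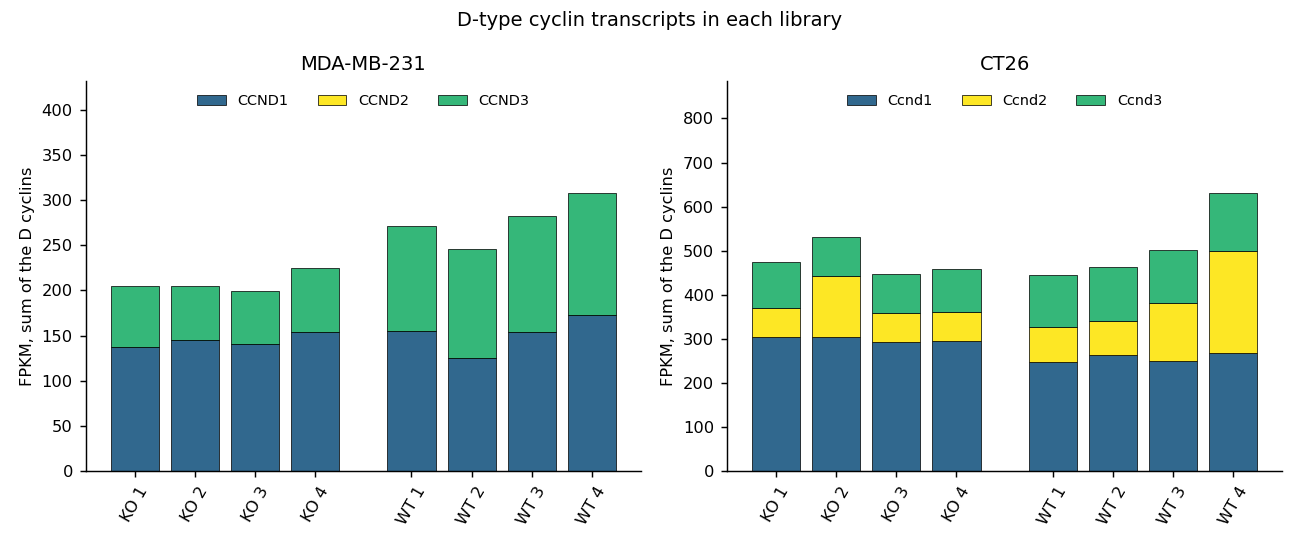
Stacked bars of the D-type cyclin transcripts in each library, in FPKM from 0, with Ccnd1 at the base, Ccnd2 in yellow and Ccnd3 on top, KO libraries left of WT libraries. In MDA-MB-231 the CCND3 block is shorter in all 4 KO libraries and CCND2 is too small to see, and in CT26 the Ccnd2 block is tallest in WT replicates 3 and 4 and KO replicate 2.

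The E-type cyclins differed by line: CCNE1 did not pass the test in MDA-MB-231, Ccne1 fell in the CT26 KO, and CCNE2 was slightly higher in KO cells of both lines. CCNE1 (ENSG00000105173, hg38 chr19:29811898-29824308, plus strand) encodes cyclin E1, the classical partner of CDK2 at S phase entry. It had 22.0, 19.6, 22.6 and 18.0 FPKM in KO libraries, against 20.0, 19.6, 18.5 and 20.8 FPKM in WT libraries of MDA-MB-231. The WT values lay inside the KO range, and the log2 fold change was 0.05 (SE 0.08, limma adjusted p = 0.589).

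Ccne1 (ENSMUSG00000002068, mm10 chr7:38097984-38107534) had 41.9, 36.9, 38.8 and 39.8 FPKM in KO libraries, against 53.6, 55.5, 55.3 and 62.0 FPKM in WT libraries of CT26. Every KO library was lower than every WT library. At a log2 fold change of -0.51 (SE 0.06, limma adjusted p = 9.93e-05), it fell further than the median of the 196 genes tested within 10 Mb, which was -0.04.

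CCNE2 (ENSG00000175305, hg38 chr8:94879770-94896678, minus strand) encodes cyclin E2, a close relative with the same kinase partner. In MDA-MB-231 it had 18.4, 18.1, 22.0 and 24.1 FPKM in KO libraries, against 17.0, 13.2, 16.4 and 17.8 FPKM in WT libraries. The groups lay close together without overlapping, and the log2 fold change was 0.34 (SE 0.12, limma adjusted p = 0.0321). This call was lost with upper-quartile scaling (0.13), with quantile normalization (0.20), with median centring (0.23), and without KO replicate 3 (0.31), KO replicate 4 (0.26), WT replicate 2 (0.25) or WT replicate 3 (0.35). CCNE2 overlaps INTS8 and NDUFAF6 on the opposite strand, and the sources used here do not say whether reads were counted by strand.

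In CT26, Ccne2 (ENSMUSG00000028212, mm10 chr4:11191351-11254258, a span shared with Ints8) had 31.5, 29.6, 31.1 and 27.2 FPKM in KO libraries, against 26.1, 23.5, 26.1 and 27.8 FPKM in WT libraries. One pair of values crossed, KO replicate 4 under WT replicate 4. The log2 fold change was 0.20 (SE 0.06, limma adjusted p = 0.0268), with an exact permutation p of 0.0571. The call was lost without KO replicate 1 (0.17), KO replicate 2 (0.20), KO replicate 3 (0.18) or WT replicate 2 (0.16). Ints8 had 16.7 ± 0.721 FPKM in KO and 23.3 ± 1.53 FPKM in WT libraries (SD, n = 4 each), the opposite direction.

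Summed, the E-type cyclins of CT26 reached 69.2 ± 3.19 FPKM in KO and 82.4 ± 5.001 FPKM in WT libraries (SD, n = 4 each). Ccne1 made up 55.5% to 59.4% of them in KO libraries and 67.3% to 70.3% in WT libraries, with no overlap. In MDA-MB-231 the sum was 41.2 ± 2.89 FPKM in KO and 35.8 ± 2.51 FPKM in WT libraries, with overlap.

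The kinase genes CDK4 and CDK6 both rose in the KO of MDA-MB-231, and both fell in the KO of CT26. CDK4 (ENSG00000135446, hg38 chr12:57747727-57756013, minus strand) encodes the main D-type cyclin kinase of epithelial cells. It had 376, 395, 363 and 396 FPKM in KO libraries, against 155, 164, 158 and 164 FPKM in WT libraries of MDA-MB-231. The lowest KO library held more than 2 times as much as the highest WT library. CDK4 averaged 383 ± 16.1 FPKM in KO and 160.0 ± 4.71 FPKM in WT libraries (SD, n = 4 each), 2.39 times as much, for a log2 fold change of 1.25 (SE 0.04, limma adjusted p = 3.65e-08). The 216 genes tested within 10 Mb had a median of 0.43, and relative to it CDK4 stood at 0.83 (limma adjusted p = 6.65e-07). With upper-quartile scaling the value was 1.04.

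Several genes around CDK4 were also higher in KO. AGAP2 had 3.20 ± 0.799 FPKM in KO and 0.0819 ± 0.0454 FPKM in WT libraries, and its antisense transcript AGAP2-AS1 had 16.9 ± 0.695 FPKM in KO and 8.39 ± 0.712 FPKM in WT libraries (SD, n = 4 each). MARCH9, which overlaps the 5′ end of the annotated CDK4 on the opposite strand, had 7.50 ± 0.651 FPKM in KO and 3.56 ± 0.260 FPKM in WT libraries (limma adjusted p = 2.38e-05). TSPAN31, which overlaps its 3′ end on the opposite strand, was not called, at 17.1 ± 3.72 FPKM in KO and 21.5 ± 2.185 FPKM in WT libraries (limma adjusted p = 0.0746). AGAP2 and AGAP2-AS1 do not overlap CDK4 in the annotation. MARCH9 begins at base 57755098, whereas the RefSeq start of CDK4 used below borders base 57752311. It thus meets the GENCODE span of CDK4 but not that start. Reads of CDK4 and of its overlapping partners MARCH9 and TSPAN31 cannot be told apart without strand, and their part in the CDK4 values was not tested.

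CDK6 (ENSG00000105810, hg38 chr7:92604921-92836594, minus strand) encodes the second D-type cyclin kinase, best known from blood cells. It had 11.9, 11.8, 12.4 and 12.2 FPKM in KO libraries, against 4.72, 4.99, 5.46 and 5.57 FPKM in WT libraries of MDA-MB-231. The groups were tight and far apart. CDK6 averaged 12.1 ± 0.300 FPKM in KO and 5.19 ± 0.401 FPKM in WT libraries (SD, n = 4 each), 2.33 times as much, for a log2 fold change of 1.08 (SE 0.07, limma adjusted p = 2.29e-06). The 132 genes tested within 10 Mb had a median of 0.07. The transcript AC002454.1, annotated on the opposite strand across the start of CDK6, had 9.88, 9.48, 5.71 and 6.46 FPKM in KO libraries, against 0.802, 2.43, 1.13 and 1.30 FPKM in WT libraries (limma adjusted p = 9.35e-05). Without strand its reads and those of CDK6 cannot be told apart where they overlap.

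CDK4 and CDK6 were the pair that rose by like factors, so the bases before their annotated starts are shown, from RefSeq on GRCh38.p14, 5′ to 3′ on the minus strand. CDK4 has 1 start window and CDK6 has 2, each of 250 bases before the start, and capitals mark the letters CACGTG, the core of the E-box that MYC and MAX bind.

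CDK4, chr12:57752311-57752560: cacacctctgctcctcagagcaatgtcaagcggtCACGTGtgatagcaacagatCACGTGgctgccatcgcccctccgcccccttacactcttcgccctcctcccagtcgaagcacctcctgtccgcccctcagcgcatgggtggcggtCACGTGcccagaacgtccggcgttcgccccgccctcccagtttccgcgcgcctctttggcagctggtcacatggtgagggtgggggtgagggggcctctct

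CDK6 first start, chr7:92836574-92836823: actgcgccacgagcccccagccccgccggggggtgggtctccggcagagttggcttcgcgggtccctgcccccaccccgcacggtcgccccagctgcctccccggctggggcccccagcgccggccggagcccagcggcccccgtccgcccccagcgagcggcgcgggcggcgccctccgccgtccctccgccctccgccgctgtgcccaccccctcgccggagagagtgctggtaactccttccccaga

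CDK6 second start, chr7:92833960-92834209: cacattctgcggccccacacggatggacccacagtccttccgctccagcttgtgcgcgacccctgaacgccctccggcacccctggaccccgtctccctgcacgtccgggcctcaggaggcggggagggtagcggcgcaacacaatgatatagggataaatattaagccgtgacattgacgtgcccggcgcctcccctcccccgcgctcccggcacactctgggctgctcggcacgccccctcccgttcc

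CACGTG, which reads the same on both strands, was searched from 250 bases before to 50 bases after each start, as were GGGCGG on both strands and 4 spellings of an E2F site, TTTCCCGC, TTTGGCGC, TTTCGCGC and TTTGCCGC, on both strands. The CDK4 window held 3 E-box cores, which begin 216, 196 and 101 bases before the start. Of 35116 RefSeq windows of the same length, 7.26% held at least 1 such core and 0.0940% held 3 or more. The first CDK6 window held 1 core, 31 bases after the start and so outside the bases shown, and the second held none. Windows were searched for 7 of the 10 genes, 13 windows in all. Among these the only others with a core were 2 of the 3 CDKN2C windows, with 1 each. CCND1 and CCND2 had no window, and windows on chromosome 8, where CCNE2 lies, were left out, so the search does not cover CCNE2. GGGCGG occurred in 45.0% of all windows, 3 times each in the CDK4 window and the first CDK6 window, 7 times in that of CCNE1 and not at all in the second CDK6 window. None of the 13 windows held the E2F letters, which 3.31% of all windows held. The search was not planned before values were seen. Its matches describe the letters, and no binding was measured.

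In CT26 both kinases ran the other way. Cdk4 (ENSMUSG00000006728, mm10 chr10:127063534-127070264, shared with Tspan31) was the most abundant of the G1 transcripts, above 99.3% of tested genes in KO and 99.5% in WT libraries by mean level. It had 1092, 1117, 1105 and 1139 FPKM in KO libraries, against 1408, 1426, 1375 and 1467 FPKM in WT libraries. The groups did not overlap. Cdk4 had a log2 fold change of -0.35 (SE 0.03, limma adjusted p = 1.42e-05), and the 96 genes tested within 10 Mb had a median of -0.11. Tspan31 had 91.0 ± 1.82 FPKM in KO and 84.9 ± 4.99 FPKM in WT libraries (SD, n = 4 each; limma adjusted p = 0.0822).

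Cdk6 (ENSMUSG00000040274, mm10 chr5:3341485-3531008) had 10.6, 10.5, 11.2 and 9.35 FPKM in KO libraries, against 11.6, 12.7, 12.5 and 13.0 FPKM in WT libraries of CT26. The groups did not overlap but came within 0.5 FPKM of each other. The log2 fold change was -0.24 (SE 0.06, limma adjusted p = 0.00990), and upper-quartile scaling took it to -0.15 and ended the call (limma adjusted p = 0.0526).

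CDK4 exceeded CDK6 in every library. The ratio was 29.2 to 33.5 in KO and 28.9 to 32.9 in WT libraries of MDA-MB-231, and 98.8 to 122 in KO and 110.3 to 121 in WT libraries of CT26. The groups overlapped in both lines, so the balance of the kinases was not seen to differ although their levels did.

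Among the inhibitors, Cdkn1b rose in the CT26 KO, CDKN2C did not pass the test in either line, and CDKN2A was near or at 0. CDKN1B (ENSG00000111276, hg38 chr12:12715058-12722371, plus strand) encodes p27, which restrains CDK2 and also helps D-type cyclins assemble with their kinases. It had 20.8, 24.2, 21.6 and 16.3 FPKM in KO libraries, against 21.6, 19.4, 28.2 and 23.2 FPKM in WT libraries of MDA-MB-231. The groups overlapped widely, and the log2 fold change was -0.15 (SE 0.14, limma adjusted p = 0.369). The 139 genes tested within 10 Mb had a median of 0.57, and relative to it CDKN1B stood at -0.72 (limma adjusted p = 0.00121). With upper-quartile scaling the value was -0.36 (limma adjusted p = 0.0425).

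Cdkn1b (ENSMUSG00000003031, mm10 chr6:134920401-134925513) had 17.2, 16.3, 17.5 and 18.2 FPKM in KO libraries, against 14.7, 14.6, 14.5 and 13.6 FPKM in WT libraries of CT26. All KO values were above all WT values, at a log2 fold change of 0.25 (SE 0.05, limma adjusted p = 0.00202).

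CDKN2C (ENSG00000123080, hg38 chr1:50960745-50974633, plus strand) encodes p18, an INK4 inhibitor of CDK4 and CDK6. It had 33.6, 35.8, 34.2 and 34.9 FPKM in KO libraries, against 36.4, 32.9, 34.7 and 32.6 FPKM in WT libraries of MDA-MB-231. The KO values fell inside the WT range, with a log2 fold change of 0.02 (SE 0.05, limma adjusted p = 0.760), but with upper-quartile scaling and with quantile normalization it turned to -0.19 in each (limma adjusted p of 0.0174 with the first and 0.0196 with the second). In CT26, Cdkn2c (ENSMUSG00000028551, mm10 chr4:109660876-109667189) had 19.4, 20.0, 20.1 and 20.4 FPKM in KO libraries, against 19.7, 18.4, 19.6 and 18.2 FPKM in WT libraries. The groups overlapped, with a log2 fold change of 0.07 (SE 0.04, limma adjusted p = 0.182), and upper-quartile scaling gave 0.16 (limma adjusted p = 0.0222).

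CDKN2A (ENSG00000147889, hg38 chr9:21967753-21995301, minus strand) encodes the INK4 inhibitor p16 and, in another reading frame, ARF. It had 0.239, 0.307, 0.327 and 0.733 FPKM in KO libraries, against 0.186, 0.0958, 0.394 and 0 FPKM in WT libraries of MDA-MB-231. All 8 values were under the filter and the groups overlapped (exact permutation p = 0.171). Genes beside it were looked at after these values were seen. CDKN2B, the neighbouring INK4 gene, was listed at 0 in all 8 libraries, as were CDKN2B-AS1 and DMRTA1. MTAP, a methionine salvage gene, and KLHL9 stayed at or under 0.0205 FPKM in every library. The processed pseudogene UBA52P6, annotated in the same deposited locus, had 3.64 ± 1.50 FPKM in KO and 1.41 ± 1.27 FPKM in WT libraries (SD, n = 4 each). It was called higher in KO (limma adjusted p = 0.0333), but its level is less certain because its parent gene can share reads.

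Cdkn2a (ENSMUSG00000044303, mm10 chr4:89274471-89294653) was listed at 0 in all 8 CT26 libraries and marked as untested by the authors, not as a failed estimate. Cdkn2b and Dmrta1 were also listed at 0. Mtap was expressed, at 46.4 ± 1.35 FPKM in KO and 52.4 ± 1.59 FPKM in WT libraries (SD, n = 4 each), and so was Klhl9, at 8.01 ± 0.317 FPKM in KO and 11.7 ± 0.382 FPKM in WT libraries. MTAP and KLHL9 were thus at or near 0 in the human line, whereas Mtap and Klhl9 were transcribed in the mouse line. CDKN2B and DMRTA1 were listed at 0 in both lines.

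The transcripts of the kinases set against those of the D-type cyclins and of the inhibitors describe the balance of the set, in FPKM over FPKM. In MDA-MB-231, CDK4 plus CDK6 amounted to 1.89 ± 0.0686 times the D-type cyclin sum in KO and 0.600 ± 0.0598 times in WT libraries (SD, n = 4 each). They amounted to 7.15 ± 0.580 times CDKN1B plus CDKN2C in KO and 2.90 ± 0.288 times in WT libraries. Neither pair of groups overlapped. In CT26, Cdk4 plus Cdk6 amounted to 2.36 ± 0.180 times the D-type cyclin sum in KO and 2.85 ± 0.388 times in WT libraries, with overlap, and to 30.2 ± 0.670 times Cdkn1b plus Cdkn2c in KO and 43.0 ± 2.61 times in WT libraries, without overlap. Relative to these inhibitors, kinase transcripts were thus higher in the human KO and lower in the mouse KO.

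The order of the levels was much the same in KO and WT. In MDA-MB-231, CDK4 led in KO libraries and stood apart from CCND1, followed by CCND3 and CDKN2C, whereas in WT libraries the ranges of CDK4, CCND1 and CCND3 joined one another. CDKN1B, CCNE1 and CCNE2 followed, all 3 with overlapping neighbours in KO, and CDK6 came below them in both groups. In CT26, Cdk4 and Ccnd1 led in both groups, Ccnd2 and Ccnd3 overlapped below them, and then came Ccne1, Ccne2, Cdkn2c, Cdkn1b and Cdk6, each apart from the next. Levels were not compared between the lines, since their tables were normalized separately.

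The difference of the KO effect between the lines was tested by a line by genotype term in limma over 8649 genes paired by symbol. It passed the threshold for 6 of the 8 G1 genes tested in both lines, beside 72.2% of all paired genes. CDK4 differed by 1.60 (MDA-MB-231 minus CT26, log2, SE 0.05, limma adjusted p = 4.49e-14) and CDK6 by 1.32 (SE 0.10, limma adjusted p = 2.88e-09), both with opposite directions in the 2 lines. CCND3, lower in KO of both lines, fell further in MDA-MB-231, by a difference of -0.59 (limma adjusted p = 3.76e-05). The difference was 0.56 for CCNE1 (limma adjusted p = 8.65e-05), -0.28 for CCND1 (limma adjusted p = 0.0182) and -0.40 for CDKN1B (limma adjusted p = 0.0264). Upper-quartile scaling moved these to 0.23 for CCNE1, -0.62 for CCND1 and -0.73 for CDKN1B, and that of CCND3 to -0.93. The call of CDKN1B was lost without KO replicate 4 (-0.30, limma adjusted p = 0.0549) or WT replicate 3 (-0.31, limma adjusted p = 0.0601) of MDA-MB-231. CCNE2 (0.14, limma adjusted p = 0.382) and CDKN2C (-0.05, limma adjusted p = 0.548) did not pass, but with upper-quartile scaling CCNE2 turned to -0.19, still without a call, and CDKN2C was called at -0.39. CCND2 and CDKN2A were not tested in both lines.

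**Figure D4:**
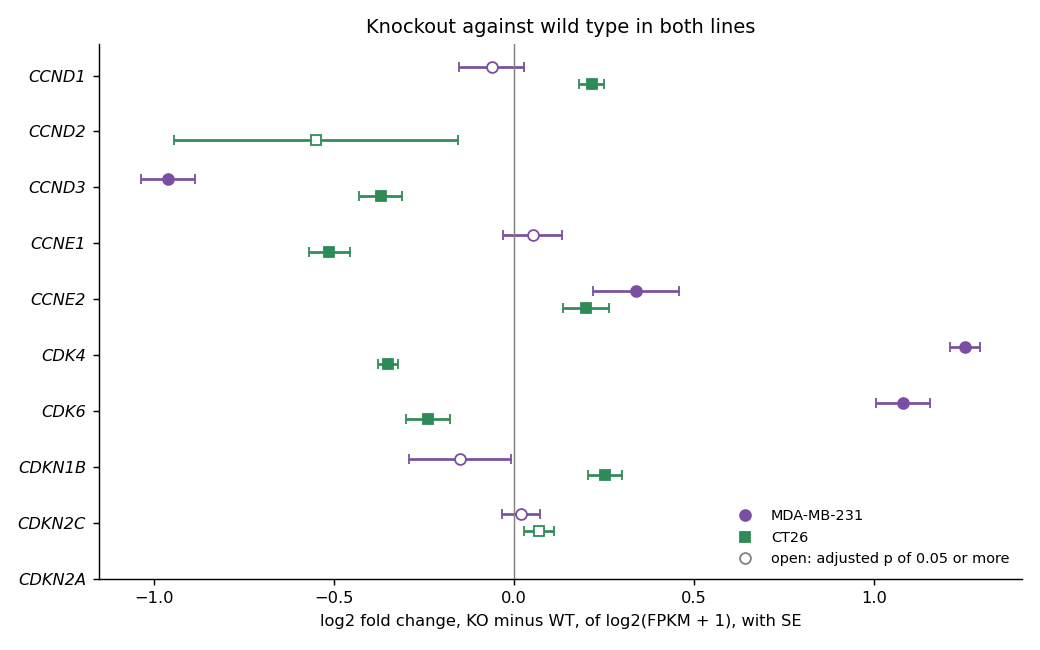
Log2 fold change of log2(FPKM + 1), KO minus WT, with its SE (x axis), for each G1 gene in MDA-MB-231 (purple circles) and CT26 (green squares); filled symbols passed an adjusted p of 0.05 and open ones did not. CDK4 and CDK6 lie right of 0 in MDA-MB-231 and left of it in CT26, CCND3 lies left in both, and genes without a symbol for a line were not tested there.

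The wider G1/S machinery was described with 7 lists of 54 genes, of which 52 passed the filter in the human and 49 in the mouse line. In MDA-MB-231, 32 were higher and 9 lower in KO, beside 42.6% higher and 25.7% lower of all genes tested. In CT26, 14 were higher and 15 lower, beside 22.3% higher and 33.5% lower of all genes tested. The list medians below stand beside medians over all genes tested of 0.18 in MDA-MB-231 and -0.06 in CT26. All values below are FPKM means with SD over 4 libraries per group, and all calls are from the limma fit over all genes.

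Of the other CDK inhibitors, 2 of 3 tested in MDA-MB-231 were lower in KO and 0 higher, with a median log2 fold change of -0.38, and upper-quartile scaling made it 3 lower. CDKN1A, which encodes p21, an inhibitor induced by p53, had 7.56 ± 0.833 FPKM in KO and 96.7 ± 4.71 FPKM in WT libraries (log2 fold change -3.52, limma adjusted p = 3.25e-09). CDKN2D, the gene of the INK4 inhibitor p19, had 22.7 ± 2.88 FPKM in KO and 29.7 ± 1.14 FPKM in WT libraries. In CT26, Cdkn1a was the only one of 2 tested that changed, at 157 ± 1.52 FPKM in KO and 69.8 ± 3.08 FPKM in WT libraries (log2 fold change 1.16). CDKN1A thus ran opposite to CDK4 and CDK6 in each line. CDKN1C, the gene of p57, was not called as deposited, at 2.72 ± 0.493 FPKM in KO and 3.57 ± 0.667 FPKM in WT libraries of MDA-MB-231, and Cdkn1c was listed at 0 in CT26.

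CDK2 and the genes that activate CDKs were higher in KO in 4 of 5 cases in MDA-MB-231 and lower in 0 (median log2 fold change 0.75), and upper-quartile scaling added 1 lower call. CDK2 had 107 ± 5.24 FPKM in KO and 65.6 ± 2.15 FPKM in WT libraries. CCNH, whose product activates CDK7, had 106 ± 10.1 FPKM in KO and 55.5 ± 4.91 FPKM in WT libraries, and CDC25A, a phosphatase gene of the G1/S step, had 23.6 ± 2.10 FPKM in KO and 12.6 ± 0.986 FPKM in WT libraries. In CT26, 1 was higher and 2 were lower (median -0.16), with 1 lower under upper-quartile scaling. Mnat1, which encodes the assembly factor of the CDK-activating kinase, had 30.4 ± 1.14 FPKM in KO and 18.1 ± 0.785 FPKM in WT libraries, and MNAT1 was higher in the human KO too, at 80.5 ± 9.44 FPKM in KO and 47.5 ± 5.64 FPKM in WT libraries.

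The pocket proteins, the retinoblastoma family, were higher in KO in 3 of 3 cases in MDA-MB-231 (median 0.50). RB1 had 29.8 ± 2.32 FPKM in KO and 21.9 ± 2.48 FPKM in WT libraries. In CT26, Rb1 (20.9 ± 1.82 FPKM in KO and 14.5 ± 2.37 FPKM in WT libraries) and Rbl2 were higher, and Rbl1 was lower, a call lost with upper-quartile scaling.

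Of the 10 E2F and DP factors, 5 were higher and 1 lower in MDA-MB-231 (median 0.26), with 3 lower under upper-quartile scaling. E2F4, a mainly repressive factor, had 144 ± 5.23 FPKM in KO and 36.1 ± 1.91 FPKM in WT libraries (log2 fold change 1.97), and its dimer partner gene TFDP1 had 289 ± 19.3 FPKM in KO and 105 ± 5.30 FPKM in WT libraries. E2F3 had 26.3 ± 0.819 FPKM in KO and 13.1 ± 0.754 FPKM in WT libraries, whereas E2F8, an atypical repressor, had 9.67 ± 0.555 FPKM in KO and 14.9 ± 1.99 FPKM in WT libraries. In CT26, 3 were higher and 4 lower (median -0.13). E2f4 was higher there too, at 93.1 ± 2.29 FPKM in KO and 72.9 ± 2.02 FPKM in WT libraries, and E2f1, an activating factor, was lower, at 29.7 ± 0.186 FPKM in KO and 38.4 ± 0.699 FPKM in WT libraries.

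Of the ubiquitin ligase genes that act on cyclins D and E and on p27, 4 of 9 were higher and 2 lower in MDA-MB-231. Their median of 0.19 was close to the 0.18 of all genes tested, and upper-quartile scaling left 2 higher. SKP2, the subunit that recognises p27 for degradation, had 65.4 ± 2.58 FPKM in KO and 20.5 ± 1.68 FPKM in WT libraries (log2 fold change 1.63, limma adjusted p = 1.03e-07). CUL1, the scaffold of the same ligase, had 30.6 ± 2.04 FPKM in KO and 43.0 ± 2.27 FPKM in WT libraries. FBXO31 had 13.9 ± 0.691 FPKM in KO and 8.56 ± 0.886 FPKM in WT libraries. In CT26, 1 of 7 tested was higher and 1 lower (median -0.06), with 0 lower under upper-quartile scaling, and Skp2 was not called, at 20.2 ± 0.560 FPKM in KO and 21.1 ± 1.64 FPKM in WT libraries. Fbxo31 was a failed estimate in CT26, and Skp1 was not found there under that symbol.

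Of the 16 genes of S phase entry, 12 were higher and 3 lower in MDA-MB-231 (median 0.50), with 10 higher under upper-quartile scaling. PCNA, the replication clamp, had 277 ± 7.82 FPKM in KO and 162 ± 4.53 FPKM in WT libraries. CDC6, which helps load the replicative helicase, had 113 ± 5.39 FPKM in KO and 54.0 ± 4.02 FPKM in WT libraries, and its partner CDT1 had 106 ± 4.53 FPKM in KO and 37.8 ± 5.26 FPKM in WT libraries. In CT26, 3 of 15 tested were higher and 6 lower (median -0.09). Mcm6, a subunit gene of that helicase, had 61.6 ± 3.78 FPKM in KO and 102 ± 1.44 FPKM in WT libraries, and Mcm3, another, had 82.3 ± 3.84 FPKM in KO and 129 ± 6.17 FPKM in WT libraries. Rrm2, which encodes a subunit of ribonucleotide reductase, ran the other way, at 207 ± 5.73 FPKM in KO and 130.4 ± 6.24 FPKM in WT libraries, and Cdt1 was a failed estimate in CT26.

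Of the transcription factors known to act on cyclin D1 or p27 genes, 4 of 6 tested were higher and 1 lower in MDA-MB-231 (median 0.34), with 3 higher and 2 lower under upper-quartile scaling. In CT26, 3 of 7 were higher and 1 lower (median -0.03). JUN, an AP-1 subunit, had 40.9 ± 0.681 FPKM in KO and 57.7 ± 2.97 FPKM in WT libraries of MDA-MB-231, and Jun had 47.9 ± 3.75 FPKM in KO and 14.3 ± 0.856 FPKM in WT libraries of CT26. CTNNB1, the gene of beta-catenin, had 194 ± 9.72 FPKM in KO and 141 ± 6.98 FPKM in WT libraries of MDA-MB-231, and Ctnnb1 had 191 ± 15.5 FPKM in KO and 254 ± 13.2 FPKM in WT libraries of CT26. FOSL1, another AP-1 subunit gene, was higher in KO of both lines.

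**Figure D5:**
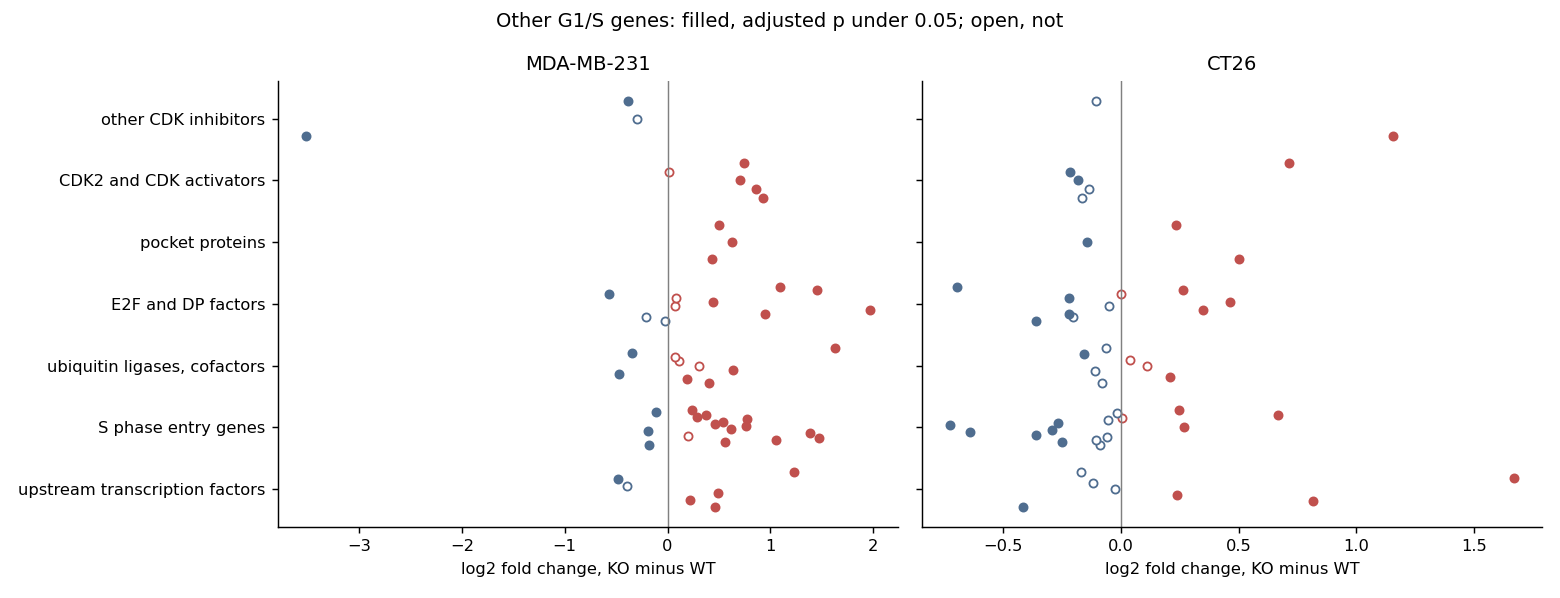
Log2 fold change of log2(FPKM + 1), KO minus WT (x axis), of each tested gene of the 7 G1/S lists in both lines; filled points passed an adjusted p of 0.05, red lies above 0 and blue below. In MDA-MB-231 most filled points lie right of 0 and CDKN1A lies far left at -3.52, and in CT26 both sides are filled, with 14 genes higher and 15 lower.

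The authors' deposited table gave a q-value under 0.05 to 3 of the 8 G1 genes it tested in MDA-MB-231 (CCND3, CDK4 and CDK6, each at 1.50e-04). In CT26 the authors' deposited table gave it to 3 of 9 (Ccne1, Cdk4 and Cdkn1b, each at 2.14e-04). The genes called by limma without such a q-value in the authors' deposited table were CCNE2 (0.0994), Ccnd3 (0.0559), Ccnd1 (0.139), Cdk6 (0.355) and Ccne2 (0.424).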

How the data were processed

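Each line had 1 deposited table with a value per gene and library. The tools listed per the submitters' processing notes are bcl2fastq 2.18, STAR 2.5.4a, Cufflinks 2.2.1 and Cuffdiff, and the builds hg38 and mm10. The deposited levels are FPKM, and of the authors' own test the q-value, a p-value adjusted by the authors, is quoted. The sources used here do not give the strand use, annotation release or Cuffdiff settings. Failed estimates, marked as such by the authors and listed at 0, number 13 in the human and 210 in the mouse table, and include none of the 10 genes.

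Values were analysed as log2(FPKM + 1), which understates the change of low genes. Genes with at least 1 FPKM in at least 4 of 8 libraries (14450 in the human and 11342 in the mouse line) were tested with limma 3.58.1 (R 4.3.3), a mean-variance trend, group as the only term, two-sided tests and Benjamini-Hochberg adjustment over all genes tested. Single values had an exact permutation test over 70 assignments. The difference between lines was a line by genotype term over genes paired by symbol. Relative depth came from ratios of values under 0.5 FPKM that are multiples of 1 fragment; only 13.3% to 23.6% of these ratios lay within 2% of the value chosen, so it is approximate. The alternatives were other pseudocounts, filters and scalings, no trend, a replicate block, leaving out single libraries, and centring on the genes within 10 Mb. The steps were tested on simulated data. Human gene spans come from GENCODE 29 and mouse loci from the deposited table, and promoter bases from RefSeq. Python 3.11.15 with pandas 2.3.3, numpy 2.4.6 and matplotlib 3.10.9 was used.

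The members and gene lists were chosen with earlier results of these data known. All 10 genes are named whatever their values, and up to 4 genes per list and line with the smallest adjusted p, of which the text describes some. The neighbours of CDKN2A, the genes like Ccnd2 and the promoter bases of CDK4 and CDK6 were chosen after values were seen. The search of the promoter windows was not planned beforehand.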

Additional observations from a re-analysis of the deposited data

Results flagged for a closer look

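Ccnd2, the cyclin D2 gene, stood out in 1 KO library of CT26, at 139 FPKM against 65.4 to 66.2 FPKM in the other 3 KO libraries. Its gap to the next library was larger, relative to the range of the 4, than Dixon's 95% critical value for 4 values allows. Of the 38 groups of 4 libraries looked at, this was the only one, and chance gives about 1 in 20. The WT libraries of CT26 were also spread, from 75.9 to 232 FPKM.

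The effect of the knockout differed between the lines, by the line by genotype term in limma, for 6 of the 8 genes tested in both, beside 72.2% of all paired genes. The difference of the log2 fold changes (MDA-MB-231 minus CT26) was 1.60 for CDK4 and 1.32 for CDK6, the kinase genes, which were higher in KO of the human line and lower in KO of the mouse line. It was 0.56 for the cyclin E1 gene CCNE1, -0.59 for the cyclin D3 gene CCND3, -0.28 for the cyclin D1 gene CCND1 and -0.40 for the p27 gene CDKN1B. Upper-quartile scaling moved that of CCND1 to -0.62, of CCNE1 to 0.23, of CCND3 to -0.93 and of CDKN1B to -0.73, and the call of CDKN1B was lost without KO replicate 4 or WT replicate 3 of MDA-MB-231. Species, tissue of origin and the derivation of the KO cells all differ between the lines or may do so, and cannot be told apart.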

How the results depend on the processing

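CDK4, CDK6 and CCND3 in MDA-MB-231 and Ccnd1, Ccnd3, Ccne1, Cdk4 and Cdkn1b in CT26 kept direction and call under every alternative run. CDK4 ran from 0.83 (centred on the genes within 10 Mb) to 1.28 and CCND3 from -1.20 (quantile) to -0.47 (10 Mb). The call of CCNE2 in MDA-MB-231 was lost with no filter (0.34), upper-quartile scaling (0.13), quantile normalization (0.20), median centring (0.23) and 10 Mb centring (0.23), and ran from 0.25 to 0.40 over left-out libraries. That of Ccne2 in CT26 was lost with no filter (0.20), ran from 0.16 to 0.24 over left-out libraries, and was 0.34 with 10 Mb centring. Upper-quartile scaling gave calls for CCND1 (-0.28), CDKN1B (-0.36) and Cdkn2c (0.16), ended that of Cdk6 (-0.15), and turned CDKN2C in MDA-MB-231 to -0.19. Quantile normalization gave -0.31 for CCND1, -0.19 for CDKN2C and 0.14 for Cdkn2c, median centring 0.12 for Cdkn2c, and 10 Mb centring -0.72 for CDKN1B. The cause was not tested. Of the differences between lines, that of CDKN2C became called with upper-quartile scaling (-0.39) and quantile normalization (-0.36), and that of CDKN1B, -0.48 to -0.30 over left-out libraries, was lost without KO replicate 4 or WT replicate 3 of MDA-MB-231. The difference of CCNE2, never called, changed sign with upper-quartile scaling (-0.19) and quantile normalization (-0.12), and both scalings moved those of CCND1, CCND3, CCNE1 and CDKN1B by over 1.5 times without ending a call.

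Libraries of the same replicate number did not deviate together in MDA-MB-231 (correlations of -0.0365 to 0.00442). In CT26 their correlations were weak but all positive, at 0.0273 to 0.0779. Those of all other KO and WT pairs of CT26 were lower, at -0.0592 to 0.0207. The main fit did not take the numbers to pair libraries, and whether they do in CT26 was not tested. A replicate block moved the calls over all genes to 9648 in MDA-MB-231 (9860 without) and 6032 in CT26 (6328 without), left Ccne2 at 0.20 without a call (limma adjusted p = 0.0577) and changed no other call among the G1 genes. The shallower KO libraries of MDA-MB-231 limit what can be said of CCND2 and CDKN2A there, and a level of 0 does not show that a gene is not transcribed.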
